A study of Mus musculus with 6 samples.

Results

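Chemokine receptors were examined in macrophages of the healing mouse infarct, with and without the α5 integrin chain. The 8 receptor genes Ccr1, Ccr2, Ccr3, Ccr7, Ccrl2, Cx3cr1, Cxcr3 and Cxcr4 were taken by symbol from the 54532 genes of the deposited count table, and all 8 had enough counts to be tested. Per the labels, 3 of the 6 RNA-seq libraries were made from ITGA5 fl/fl hearts and 3 from Myα5KO hearts, all taken from 12-week-old mice at 7 days of permanent coronary occlusion. Mice of both groups carried floxed Itga5 alleles on a C57BL/6 background. The Myα5KO mice also carried Cre under lysozyme M control (LyzM-Cre), whereas the ITGA5 fl/fl littermates had no Cre, so the presence of Cre and the loss of Itga5 cannot be told apart. LyzM-Cre acts in myeloid cells in general and is not restricted to macrophages. Cells of single hearts were depleted of Ly6G+ cells and enriched for CD11b+ cells on magnetic columns before RNA-seq, and CD11b is also carried by monocytes, NK cells, some dendritic cells and other leukocytes.

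Chemokine receptors are membrane proteins through which leukocytes sense gradients of chemokines, and most of them act by activating heterotrimeric Gi proteins. In the infarct, Ccr2 is known for the recruitment of inflammatory Ly6C-high monocytes along Ccl2 and Ccl7, and Cx3cr1 marks patrolling monocytes and many tissue macrophages. Ccr1 is a receptor of inflammatory chemokines such as Ccl3 and Ccl5, Cxcr4 retains and guides cells along Cxcl12, Ccr7 guides mature dendritic cells along Ccl19 and Ccl21, and Cxcr3 and Ccr3 are best known on T and NK cells and on eosinophils. Ccrl2 is an atypical receptor that binds chemerin and presents it to Cmklr1 on other cells without known G protein signalling.

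In Myα5KO infarct macrophages, the transcripts of Ccr2 and Cx3cr1 rose to 149% and 136% of the ITGA5 fl/fl mean, and those of Ccr1 and Ccrl2 fell to 68.0% and 78.7%. Ccr3, Ccr7, Cxcr3 and Cxcr4 did not pass the test. Genes were compared with the quasi-likelihood test of edgeR, and a gene was called changed at a Benjamini-Hochberg adjusted p of 0.05 or less over all 14522 tested genes. By this rule 4 of the 8 receptors were called, beside 8.75% of all tested genes. The 2 receptors called higher stand beside 3.56% of genes called higher, and the 2 called lower beside 5.19% called lower. In the same 4 receptors the libraries of the groups did not overlap, which held for 28.6% of tested genes, 14.9% with the Myα5KO libraries above and 13.8% with them below. These 8 receptors were chosen with earlier results of these data known, so their shares are no test of receptors as a set. Of 10 other chemokine receptors tested, 1 was called. The median log2 fold change, Myα5KO over ITGA5 fl/fl, was 0.10 for the 8 receptors and 0.01 for all tested genes. Fewer cells of a type and less RNA per cell cannot be told apart in these bulk samples.

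Library totals lay between 15424451 and 18419287 counts, and every Myα5KO total exceeded every ITGA5 fl/fl total. Itga5 fell from 607 ± 43.2 to 48.7 ± 1.48 CPM (counts relative to the TMM-scaled library total; SD, n = 3 each; log2 fold change -3.64). Lyz2, the gene whose locus drives the Cre, fell from 7315 ± 286 to 3874 ± 254 CPM (SD, n = 3 each; adjusted p = 4.3e-05). Of 9 macrophage markers, 1 (Fcgr1, log2 fold change 0.27) was called higher, and the other 8 had negative log2 fold changes of -0.20 to -0.01 that were not called. The Fcgr1 call was lost without any 1 of the 3 ITGA5 fl/fl libraries or without the second Myα5KO library (adjusted p of 0.0571 to 0.108). The summed level of the 9 was 12628 to 12868 CPM in the ITGA5 fl/fl libraries and 11892 to 12561 CPM in Myα5KO libraries, without overlap (exact two-sided permutation p = 0.1, adjusted 0.233), and its part in the receptor values was not tested. Adgre1 was present at 1313 ± 80.3 CPM in the ITGA5 fl/fl libraries and 1272 ± 55.3 CPM in Myα5KO libraries, and Csf1r at 2188 ± 104 and 2153 ± 141 CPM (SD, n = 3 each). The defining macrophage markers were thus abundant in both groups.

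**Figure D1:**
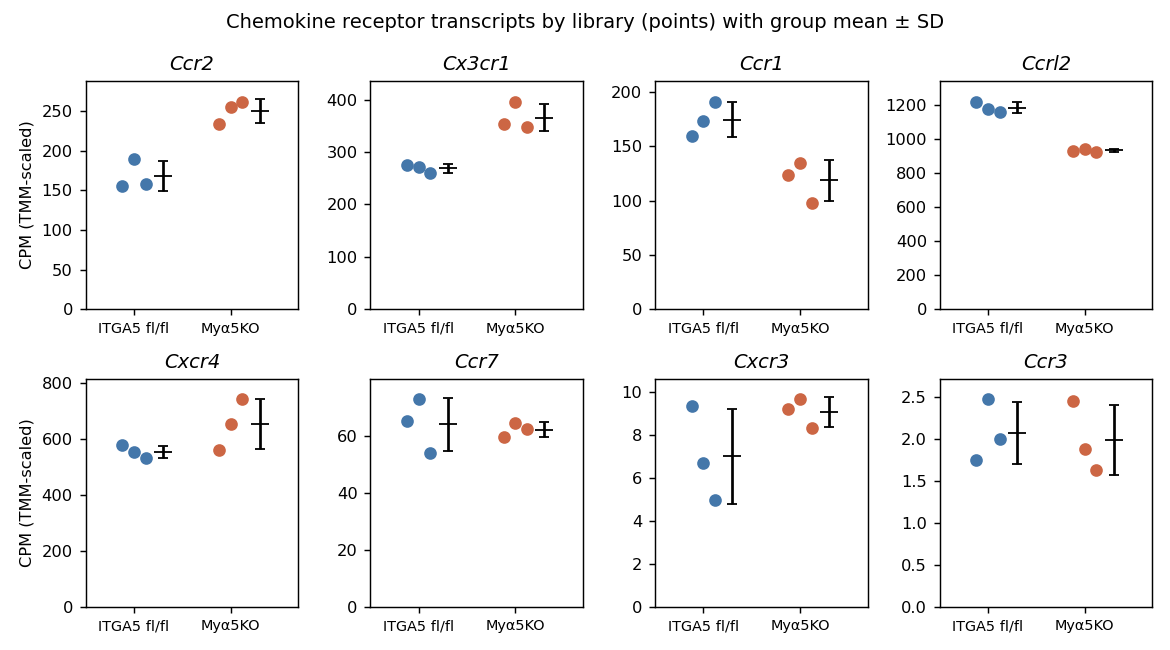
Transcript level of each of the 8 receptors in each library (points; vertical axis, TMM-scaled CPM from 0) with the group mean ± SD (n = 3 each). The Myα5KO points lie above all ITGA5 fl/fl points for Ccr2 and Cx3cr1 and below them for Ccr1 and Ccrl2, and the groups overlap for Cxcr4, Ccr7, Cxcr3 and Ccr3.

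The receptors that identify monocyte and macrophage states were examined first. Ccr2 (ENSMUSG00000049103, GRCm38 chromosome 9, 124101950 to 124113557, plus strand, protein coding) was measured at 156, 189.5 and 158 CPM in the ITGA5 fl/fl libraries and at 234, 256 and 262 CPM in the Myα5KO libraries. Every Myα5KO library lay above every ITGA5 fl/fl library. The means were 168 ± 18.8 and 250.4 ± 14.8 CPM (SD, n = 3 each), and the log2 fold change was 0.58 (SE 0.08, 95% interval 0.40 to 0.75; adjusted p = 0.00111). Ccr2 had the largest increase of the 8 receptors, and it was called higher in all 15 alternative fits, with adjusted p-values up to 0.0250.

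Cx3cr1, the fractalkine receptor (ENSMUSG00000052336, chromosome 9, 119901616 to 120069879, minus strand, protein coding), stood at 275, 272 and 259 CPM in ITGA5 fl/fl macrophages. In Myα5KO macrophages it stood at 354, 396 and 347 CPM. The control libraries were close together and all 3 Myα5KO libraries were above them. The means of 269 ± 8.51 and 366 ± 26.4 CPM (SD, n = 3 each) differed by a log2 fold change of 0.44 (SE 0.07, 95% interval 0.29 to 0.60; adjusted p = 0.00219), and the call was made in all 15 alternative fits. The deposited span of Cx3cr1 overlaps 9 other annotated genes on both strands, among them Csrnp1, Wdr48 and Xirp1. How the counting treated strand and overlapping genes is not stated, so the Cx3cr1 count may lack or hold reads of these neighbours.

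Ccr2 and Cx3cr1 were then set against each other. The log2 ratio of Ccr2 to Cx3cr1 CPM was -0.82, -0.52 and -0.71 in libraries of ITGA5 fl/fl hearts and -0.60, -0.63 and -0.41 in Myα5KO libraries, and the groups overlapped. The mean ratio shifted by 0.14, from -0.68 ± 0.15 to -0.55 ± 0.12 (SD, n = 3 each; exact two-sided permutation p = 0.3, where the smallest p that 3 against 3 allows is 0.1). No shift of the balance between these receptors was detected with 3 libraries a group.

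Markers of the cells that carry these receptors were measured beside them. Of 7 classical monocyte markers, 2 rose, among them Ly6c2 (log2 fold change 0.71, SE 0.11, adjusted p = 0.00225), which encodes part of the Ly6C antigen. Ly6c2 stood at 12.6, 17.0 and 17.2 CPM in the ITGA5 fl/fl libraries and at 26.3, 24.7 and 25.9 CPM in Myα5KO libraries. The summed level of all 7 markers was 578 to 741 CPM in the ITGA5 fl/fl libraries and 607 to 777 CPM in Myα5KO libraries, so the sums overlapped. Plac8 had a log2 fold change of 0.48 (adjusted p = 0.0630), Vcan of 0.43 (adjusted p = 0.112) and Chil3 of -0.06 (adjusted p = 0.811).

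Of 6 nonclassical monocyte markers, 3 rose, namely Nr4a1 (log2 fold change 0.42, SE 0.09, adjusted p = 0.00972), the nuclear receptor on which patrolling monocytes depend, Spn (0.49, SE 0.08, adjusted p = 0.00306), which encodes CD43, and Itgal (0.33, SE 0.07, adjusted p = 0.00970). The summed level of the 6 was 1593 to 1625 CPM in the ITGA5 fl/fl libraries and 1862 to 2093 CPM in Myα5KO libraries and did not overlap (exact two-sided permutation p = 0.1, the smallest possible, and 0.233 adjusted over 14 marker lists). The difference in the sum came from Nr4a1, which is also an immediate-early gene and stood at 1031 ± 75.8 and 1376 ± 137 CPM (SD, n = 3 each). Without it the sums, an alternative chosen after the values were seen, overlapped, with 534, 569 and 647 CPM for ITGA5 fl/fl and with 609.9, 559 and 571 CPM for Myα5KO. Of the uncalled markers of the list, Ace had a log2 fold change of 0.28 (adjusted p = 0.0528), Treml4 of -0.03 (adjusted p = 0.923) and Cd36 of -0.18 (adjusted p = 0.289). None of 6 markers of resident cardiac macrophages was called by edgeR or limma-voom (DESeq2 called 1 higher, and edgeR had 1 higher and 1 lower at an unadjusted p under 0.05), and their sums of 428 to 562 and 520.3 to 644 CPM overlapped. The Nr4a1 call was lost without the third ITGA5 fl/fl library (adjusted p = 0.0606), and that of Itgal without the second (adjusted p = 0.0571). The part of monocytes in the Ccr2 and Cx3cr1 values was not tested.

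**Figure D2:**
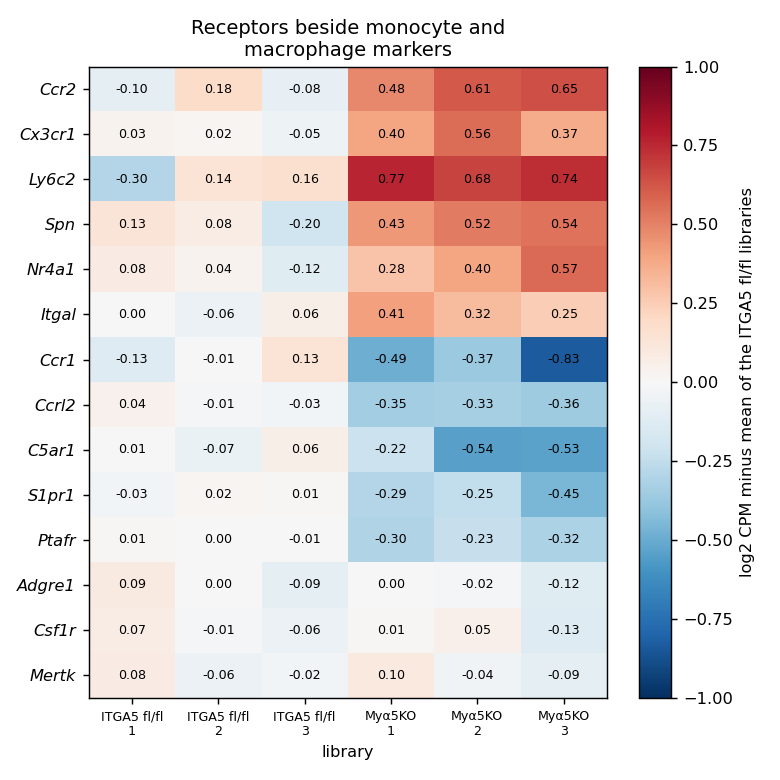
Level of 14 genes in each library as log2 CPM minus the mean of the 3 ITGA5 fl/fl libraries (colour scale and printed values; rows are genes, columns are libraries). Ccr2, Cx3cr1 and the called monocyte markers shown are positive in all 3 Myα5KO libraries, Ccr1, Ccrl2, C5ar1, S1pr1 and Ptafr are negative in all 3, and the macrophage markers Adgre1, Csf1r and Mertk lie between -0.13 and 0.10. All rows but these last 3 hold called genes. The marker rows are a selection. Of the full lists, 5 of 7 classical and 4 of 6 nonclassical monocyte markers had positive log2 fold changes. Those that did not were Chil3 (-0.06), F13a1 (-0.05), Treml4 (-0.03) and Cd36 (-0.18), which are not shown. The called macrophage marker Fcgr1 (0.27) is not shown either.

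Ccr1 and Ccrl2 moved the other way. Ccr1 (ENSMUSG00000025804, chromosome 9, 123962124 to 123968692, minus strand, protein coding) was measured at 159, 173 and 191 CPM in the ITGA5 fl/fl libraries and at 124, 135 and 97.9 CPM in Myα5KO libraries. The groups did not overlap, and the third Myα5KO library was the lowest. The means were 175 ± 15.9 and 119 ± 18.9 CPM (SD, n = 3 each), and the log2 fold change was -0.56 (SE 0.10, 95% interval -0.78 to -0.34; adjusted p = 0.00528). The call was lost when FPKM values were tested with limma in place of counts (log2 fold change -0.56, adjusted p = 0.0623 with a pseudocount of 1). It was made in each of the 6 fits without 1 library, in which the log2 fold change ranged from -0.66 to -0.44.

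In ITGA5 fl/fl macrophages Ccr1 and Ccr2 were counted at nearly equal CPM, and in Myα5KO macrophages Ccr2 was above Ccr1 in every library. The log2 ratio of Ccr2 to Ccr1 CPM, a ratio chosen after the values were seen and therefore not tested, was -0.03, 0.13 and -0.27 in libraries of ITGA5 fl/fl hearts and 0.92, 0.93 and 1.42 in Myα5KO libraries. The means differed by 1.15.

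Ccrl2 (ENSMUSG00000043953, chromosome 9, 111054486 to 111057519, minus strand, protein coding) stood at 1219, 1176 and 1159 CPM in the ITGA5 fl/fl libraries and at 930.3, 943 and 925 CPM in Myα5KO libraries. The libraries of each group lay close together, and the groups were well apart. The means of 1185 ± 30.7 and 933 ± 8.99 CPM (SD, n = 3 each) differed by a log2 fold change of -0.35 (SE 0.07, 95% interval -0.49 to -0.20; adjusted p = 0.00651). Ccrl2 was called lower in all 15 alternative fits, with adjusted p-values up to 0.0328. Cmklr1, the signalling receptor of chemerin, stood at 120 ± 3.72 and 115 ± 10.3 CPM (SD, n = 3 each; log2 fold change -0.05, adjusted p = 0.716) and is given here outside the rule for named genes, as the partner of Ccrl2.

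Other chemoattractant receptors were measured beside Ccr1 and Ccrl2. Of 12 listed, 11 were tested and 3 were called, all lower in Myα5KO macrophages, and the median log2 fold change of the 11 was -0.05. The called genes were the complement receptor C5ar1 (log2 fold change -0.42, SE 0.09, adjusted p = 0.00988), the sphingosine-1-phosphate receptor S1pr1 (-0.33, SE 0.07, adjusted p = 0.00970) and the platelet-activating factor receptor Ptafr (-0.28, SE 0.06, adjusted p = 0.0149). C5ar1 stood at 598, 568 and 621 CPM in the ITGA5 fl/fl libraries and at 512, 409 and 411 CPM in Myα5KO libraries, with no overlap. Its call was lost without the third ITGA5 fl/fl library (adjusted p = 0.0525) and in the FPKM fits, and that of Ptafr without the second or the third ITGA5 fl/fl library (adjusted p = 0.0649 and 0.0573).

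Neutrophils carry Ccr1, Ccrl2 and Cxcr4 as well, and some of their transcripts moved between the groups. Of 9 listed neutrophil markers, 8 were tested and 5 rose, S100a8, S100a9, Camp, Ngp and Ltf, with log2 fold changes of 1.51 to 2.05. The summed level was 187 to 226 CPM in the ITGA5 fl/fl libraries and 245 to 372 CPM in Myα5KO libraries (exact permutation p = 0.1, adjusted 0.233). Ly6g, which encodes the antigen used for depletion, had at most 2 counts in a library. Of the uncalled markers, Csf3r, which made up most of the sum in the ITGA5 fl/fl libraries, had a log2 fold change of 0.13 (adjusted p = 0.378), Mmp8 of 0.47 (adjusted p = 0.0665) and Retnlg of -0.65 (adjusted p = 0.311), and the neutrophil chemokine receptor Cxcr2 had 7 or 8 counts in every library. The calls of S100a8, S100a9, Camp and Ngp were lost in both FPKM fits (adjusted p of 0.0713 to 0.130) and that of Ltf with a pseudocount of 0.1 (adjusted p = 0.0502). The S100a9 call was also lost without the second ITGA5 fl/fl library (log2 fold change 1.26, adjusted p = 0.0588) and with DESeq2 (adjusted p = 0.0778). The part of neutrophils in the values of Ccr1, Ccrl2 and Cxcr4 was not tested.

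The sequences just upstream of the 2 receptors that fell, and of Cxcr4, which was not called, are shown. Those of the receptors that rose were searched as well and are not printed. RefSeq windows on build GRCm38.p6, from 250 bases before to 50 bases after a start site, matched 7 of the 8 receptors, and Ccr7 had no entry. Ccrl2 had 3 windows, and only that nearest to the deposited gene start was used. The Ccr1 bases lie at chr9:123968693-123968942, those of Ccrl2 at chr9:111057519-111057768 and those of Cxcr4 at chr1:128592300-128592549, all on the minus strand. Each is printed 5′ to 3′ and ends directly before the RefSeq start site, and capitals mark the letters of the motifs found by a search of both strands.
Ccr1 upstream: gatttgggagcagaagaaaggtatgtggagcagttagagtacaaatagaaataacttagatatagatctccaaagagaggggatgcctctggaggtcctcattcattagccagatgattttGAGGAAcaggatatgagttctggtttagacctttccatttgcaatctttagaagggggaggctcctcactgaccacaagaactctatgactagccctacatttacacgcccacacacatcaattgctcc
Ccrl2 upstream: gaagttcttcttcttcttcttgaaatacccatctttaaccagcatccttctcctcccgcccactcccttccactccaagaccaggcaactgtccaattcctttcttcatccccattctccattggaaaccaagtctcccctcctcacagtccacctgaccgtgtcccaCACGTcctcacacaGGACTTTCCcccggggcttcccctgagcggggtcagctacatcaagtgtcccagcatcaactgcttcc
Cxcr4 upstream: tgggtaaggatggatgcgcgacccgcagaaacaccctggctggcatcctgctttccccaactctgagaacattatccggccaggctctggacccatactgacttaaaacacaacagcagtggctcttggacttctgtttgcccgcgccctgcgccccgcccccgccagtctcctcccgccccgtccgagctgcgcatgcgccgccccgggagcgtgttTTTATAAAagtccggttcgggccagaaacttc

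The motifs searched were TATAAA for the TATA box, TGANTCA for AP-1, ACGTG for the HIF-1 core, GAGGAA for the core of PU.1, a myeloid transcription factor, and GGACTTTCC for a kappaB core, and they were chosen after the sequences were seen. Of 32851 mouse RefSeq windows of this length, they were found in 13.6%, 7.81%, 19.6%, 28.3% and 0.344%, respectively. The Ccr1 window held GAGGAA, starting at base -129 from the start site. The Ccrl2 window held GGACTTTCC at -68 and CACGT, the minus-strand form of ACGTG, at -82. The Cxcr4 window held TATAAA at -30, which overlaps TTTATA, its minus-strand form, at -32. No motif of the search was found in both receptors that fell, and none was found for Ccr2 or Cx3cr1, which rose. The start sites of the windows were not equally placed on the counted genes. They lay 233 bases from the deposited gene start for Ccr2 and 1583 for Cx3cr1, against 0 for Ccr1 and 1 for Ccrl2. GAGGAA also lay in the window of the uncalled Ccr3, at -181, beside TGAGTCA at -144. TTCCTC, the minus-strand form of GAGGAA, lay in that of the uncalled Cxcr3, at -14. These matches are descriptions of letters and no measurement of binding.

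Receptors of homing and retention were at different levels and none was called. Cxcr4 (ENSMUSG00000045382, chromosome 1, 128588199 to 128592293, minus strand, protein coding) stood at 577, 552 and 533 CPM in the ITGA5 fl/fl libraries and at 562, 653 and 741 CPM in Myα5KO libraries. The first Myα5KO library fell within the range of the ITGA5 fl/fl libraries and the other 2 were above it. The means were 554 ± 22.1 and 652 ± 89.5 CPM (SD, n = 3 each), and the log2 fold change was 0.23 (SE 0.09, 95% interval 0.04 to 0.43; adjusted p = 0.135). Without the first Myα5KO library the adjusted p was 0.0237 (log2 fold change 0.33), and Cxcr4 was called higher. Without the third Myα5KO library it was 0.319 (log2 fold change 0.13), so the estimate depended on single libraries in both directions. Cxcr4 was also called higher with library totals as the only scaling (adjusted p = 0.0382) and without a count filter (adjusted p = 0.0226).

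Ccr7 (ENSMUSG00000037944, chromosome 11, 99144196 to 99155077, minus strand, protein coding) stood at 65.2, 72.7 and 54.1 CPM in the ITGA5 fl/fl libraries and at 59.5, 64.6 and 62.2 CPM in Myα5KO libraries. All 3 Myα5KO libraries lay within the range of the ITGA5 fl/fl libraries. The log2 fold change was -0.04 (SE 0.09, 95% interval -0.24 to 0.16; adjusted p = 0.828), and its sign turned with library totals as the only scaling (0.0372). Among 7 markers of migratory dendritic cells, the cells best known for Ccr7, 6 were tested and 1 was called, Relb (log2 fold change -0.38, adjusted p = 0.00323). The summed level of the 7 was 462 to 495 CPM in the ITGA5 fl/fl libraries and 429.5 to 436 CPM in Myα5KO libraries, without overlap (exact permutation p = 0.1, adjusted 0.233). The lower sum came from Relb and from Tmem123 (281 ± 20.6 and 255 ± 7.31 CPM; SD, n = 3 each; adjusted p = 0.253), whereas Ccl22, Fscn1 and Cacnb3 had positive log2 fold changes of 0.53, 0.20 and 0.18 (adjusted p = 0.0687, 0.128 and 0.417). The part of migratory dendritic cells in the Ccr7 value was not tested.

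Cxcr3 and Ccr3 were detected at low levels. Cxcr3 (ENSMUSG00000050232, chromosome X, 101731535 to 101734269, minus strand, protein coding) had 139, 114 and 87 counts in the ITGA5 fl/fl libraries and had 173, 180 and 158 counts in Myα5KO libraries. On the CPM scale these were 9.32, 6.70 and 4.95 against 9.21, 9.63 and 8.31, so the first ITGA5 fl/fl library fell among the Myα5KO libraries. The log2 fold change was 0.38 (SE 0.19, 95% interval -0.02 to 0.78; adjusted p = 0.236). Without the first ITGA5 fl/fl library it was 0.64 (adjusted p = 0.0413), and Cxcr3 was called higher. Without the third ITGA5 fl/fl library it was 0.18 (adjusted p = 0.608), so the estimate depended on single libraries in both directions.

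T and NK cells are the best known carriers of Cxcr3. Of their 9 listed markers, 5 had enough counts to be tested and none was called by edgeR, DESeq2 or limma-voom, while 3 were higher at an unadjusted p under 0.05 by edgeR. The antigen receptor genes Cd3d, Cd3e, Cd3g and Trac had at most 10 counts in a library. The summed level was 13.5 to 17.9 CPM in the ITGA5 fl/fl libraries and 19.4 to 24.3 CPM in Myα5KO libraries, without overlap (exact permutation p = 0.1, adjusted 0.233). Gzma made up most of it, with 103, 142 and 186 counts in the ITGA5 fl/fl libraries and with 235, 196 and 244 counts in Myα5KO libraries. The part of NK cells in the Cxcr3 value was not tested.

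Ccr3 (ENSMUSG00000035448, chromosome 9, 124021972 to 124031689, plus strand, protein coding) had 26, 42 and 35 counts in the ITGA5 fl/fl libraries and had 46, 35 and 31 counts in Myα5KO libraries, and the groups overlapped. Counting error alone gives the lowest count, 26, an exact Poisson 95% interval of 17.0 to 38.1, and the highest, 46, one of 33.7 to 61.4. The log2 fold change was -0.06 (SE 0.26, 95% interval -0.61 to 0.49; adjusted p = 0.912), an interval that holds changes as large as that of Cx3cr1. Changes within this interval remain possible, and the smallest change detectable at this depth was not computed. Of 6 eosinophil markers, Epx, Prg2, Ear1 and Ear6 had too few counts to be tested, and the summed level of the list was 3.36 to 4.35 CPM in the ITGA5 fl/fl libraries and 2.68 to 4.68 CPM in Myα5KO libraries.

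**Figure D3:**
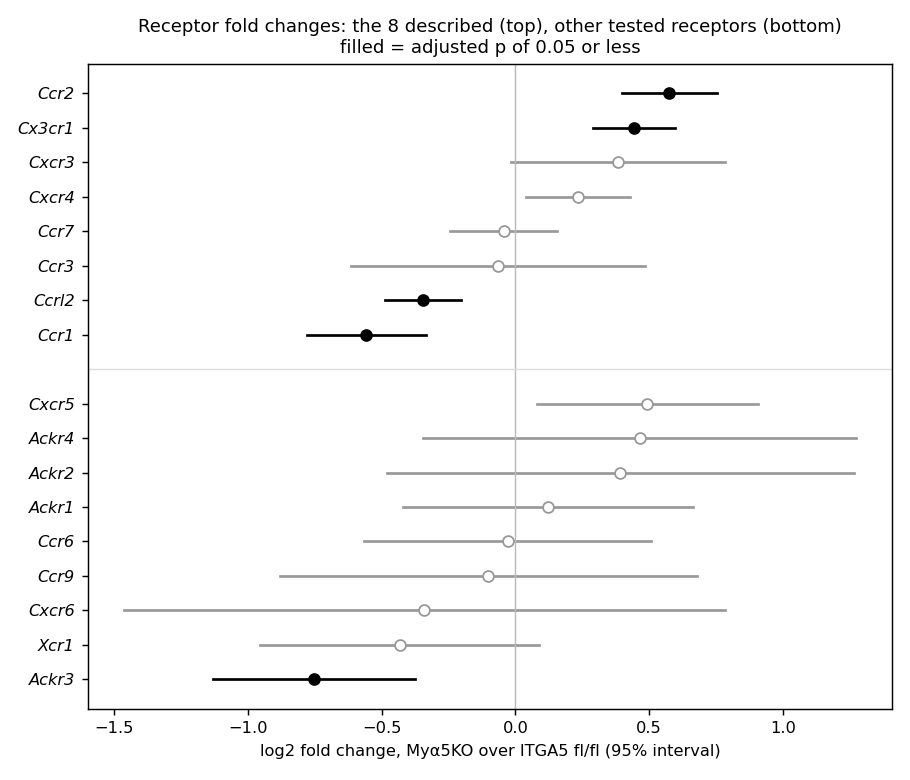
Log2 fold change, Myα5KO over ITGA5 fl/fl, with its 95% interval (horizontal axis) for the 8 receptors (upper group) and 9 other tested chemokine receptors (lower group). Filled points mark an adjusted p of 0.05 or less and are Ccr2, Cx3cr1, Ccrl2, Ccr1 and Ackr3.

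The remaining chemokine receptors were compared with the same fit. Of 16 others listed, 10 were tested, and 1, Ackr3, was called lower. Ackr3, an atypical receptor that takes up Cxcl12, stood at 10.8, 17.6 and 12.5 CPM in the ITGA5 fl/fl libraries and at 9.26, 6.63 and 8.41 CPM in Myα5KO libraries, without overlap (log2 fold change -0.75, SE 0.18, adjusted p = 0.0184). Its call was lost without the second ITGA5 fl/fl library (log2 fold change -0.52, adjusted p = 0.0885), without the second Myα5KO library (-0.63, adjusted p = 0.0642) and in the FPKM fits.

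Among the other receptors tested, Cxcr5 had a log2 fold change of 0.49 (adjusted p = 0.137), Ackr4 of 0.46 (adjusted p = 0.503), Ackr2 of 0.39 (adjusted p = 0.613) and Ackr1 of 0.12 (adjusted p = 0.819). Ccr6 stood at -0.03 (adjusted p = 0.963), Ccr9 at -0.10 (adjusted p = 0.902), Cxcr6 at -0.34 (adjusted p = 0.751) and Xcr1 at -0.43 (adjusted p = 0.312). Ackr4, Ackr2, Ccr9 and Cxcr6 had at most 23 counts in a library, and the SE of their log2 fold changes was 0.36 to 0.52. Ccr1l1, Ccr4, Ccr8, Ccr10, Cxcr1 and Cxcr2 had too few counts to be tested. The median log2 fold change of the 10 tested receptors was 0.02, beside 0.10 for the 8 receptors.

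**Figure D4:**
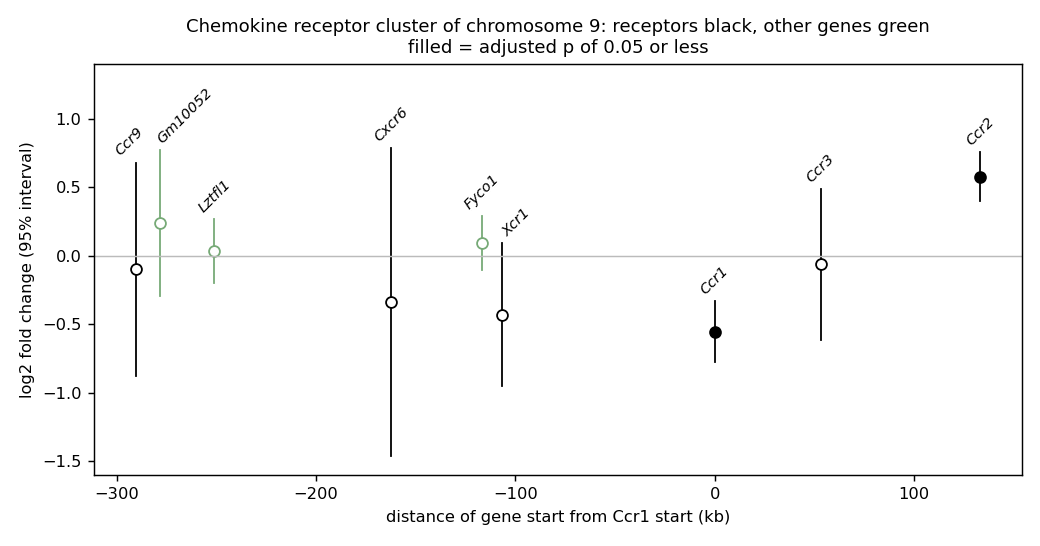
Log2 fold change with its 95% interval (vertical axis) of tested genes of the chromosome 9 receptor cluster, plotted by the distance of their gene start from that of Ccr1 in kilobases (horizontal axis). Receptors are black and other genes green, and filled points mark an adjusted p of 0.05 or less, which are Ccr1 and Ccr2.

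Ccr1, Ccr3 and Ccr2 lie in a receptor cluster on chromosome 9. Within it, the starts of Ccr1 and Ccr2 are 133 kb apart, and they were called in opposite directions. Ccr3 lies between them, 53.3 kb from the start of Ccr1, and was not called. Among the other genes of the cluster, Lztfl1 (log2 fold change 0.03), Fyco1 (0.09) and the pseudogene Gm10052 (0.24), were not called either. None of the 50-base words of Ccr1 was found in Ccr1l1.

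Levels were compared between receptors per length, as the deposited FPKM, a count of fragments divided by gene length and library depth. In ITGA5 fl/fl macrophages Ccrl2 led with 454 ± 12.3 FPKM, followed by Cxcr4 with 305 ± 12.4 FPKM (SD, n = 3 each). Ccr1 with 61.4 ± 5.61 FPKM and Cx3cr1 with 59.4 ± 1.84 FPKM overlapped, as did Ccr7 with 32.2 ± 4.64 FPKM and Ccr2 with 24.7 ± 2.67 FPKM (SD, n = 3 each). Cxcr3 with 4.02 ± 1.27 FPKM and Ccr3 with 0.629 ± 0.110 FPKM were lowest (SD, n = 3 each). All other neighbours in this order were separate in every library.

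In Myα5KO macrophages Cxcr4 with 357 ± 46.4 FPKM and Ccrl2 with 356 ± 5.86 FPKM overlapped at the top (SD, n = 3 each). Cx3cr1 followed with 80.5 ± 6.20 FPKM and was above Ccr1 with 41.6 ± 6.90 FPKM in every library, and Ccr1 overlapped with Ccr2, which had 36.7 ± 1.96 FPKM (SD, n = 3 each). Ccr2 was above Ccr7, which had 31.1 ± 1.30 FPKM, and Cxcr3 with 5.19 ± 0.426 FPKM and Ccr3 with 0.602 ± 0.131 FPKM were again lowest (SD, n = 3 each). The order in Myα5KO macrophages depends on the gene length used, because with the longest annotated transcript Ccr2 (43.4 FPKM) ranked above Ccr1 (41.6 FPKM) and Ccrl2 (376 FPKM) above Cxcr4 (358 FPKM).

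**Figure D5:**
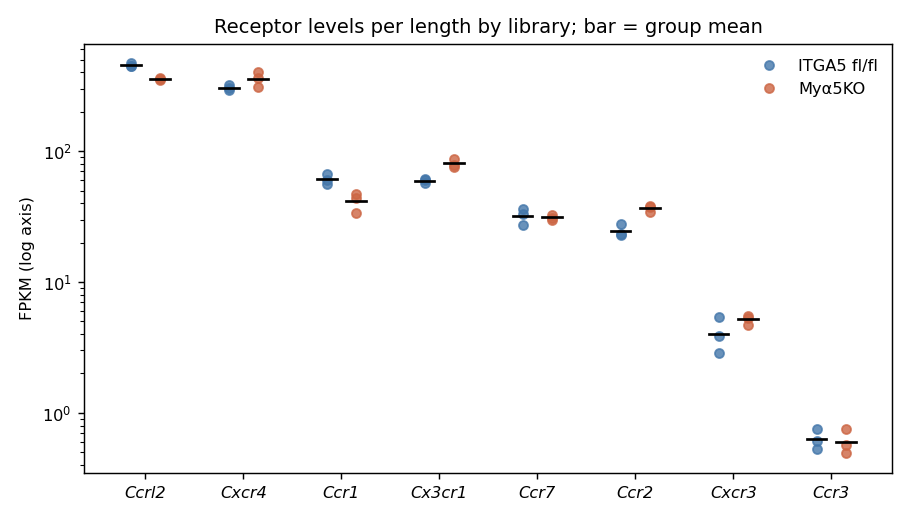
FPKM of each receptor in each library (points, vertical log axis) with the group mean (bar, n = 3 each), ordered by the ITGA5 fl/fl mean. Ccrl2 and Cxcr4 lie highest in both groups and Cxcr3 and Ccr3 lowest.

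Ligands of the 8 receptors were examined in the same macrophages. Of 18 listed, 15 were tested, 3 were called higher and none lower, and the median log2 fold change of the 15 was 0.16. DESeq2 and limma-voom called 2 higher each and none lower, and by edgeR 6 were higher and 2 lower at an unadjusted p under 0.05. Ccl11 had too few counts to be tested. Ccl19 and Ccl21a had duplicate entries in the deposited counts and were left out, so no ligand of Ccr7 was tested. The Cxcr3 ligands Cxcl9 and Cxcl10, which are induced by interferon, rose by log2 fold changes of 0.98 (SE 0.26, adjusted p = 0.0306) and 0.39 (SE 0.10, adjusted p = 0.0228). Cxcl9 stood at 9.18, 12.0 and 9.33 CPM in the ITGA5 fl/fl libraries and at 13.4, 31.6 and 15.4 CPM in Myα5KO libraries, so the second Myα5KO library was far above the others. Without that library its log2 fold change was 0.50 and the call was lost (adjusted p = 0.0643), as it also was without the first or the third ITGA5 fl/fl library (adjusted p = 0.0856 and 0.118) and with DESeq2 (adjusted p = 0.130). The Cxcl10 call was lost without the first ITGA5 fl/fl library (0.28, adjusted p = 0.0562) and without the second Myα5KO library (0.33, adjusted p = 0.0945). Cxcl12, the ligand of Cxcr4 and Ackr3, rose from 28.3 ± 2.31 to 36.0 ± 3.80 CPM (SD, n = 3 each; log2 fold change 0.35, adjusted p = 0.0359), and this call was lost without the second or the third ITGA5 fl/fl library or the first or the third Myα5KO library (adjusted p = 0.149, 0.104, 0.124 and 0.0695).

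None of the tested ligands of Ccr1, Ccr2 and Cx3cr1 was called by edgeR. Ccl2, a ligand of Ccr2, had a log2 fold change of 0.09 (adjusted p = 0.661), Ccl7 of -0.02 (adjusted p = 0.941) and Ccl12 of 0.26 (adjusted p = 0.183). The Cx3cr1 ligand Cx3cl1 stood at -0.43 (adjusted p = 0.0658), and the Ccr1 ligands Ccl3 and Ccl5 at 0.38 (adjusted p = 0.153) and 0.12 (adjusted p = 0.576). The other tested Ccl genes of the list went both ways. Ccl4 stood at 0.42 (adjusted p = 0.204) and Ccl8 at 0.17 (adjusted p = 0.220). Ccl6 stood at -0.31 (adjusted p = 0.348), Ccl9 at -0.04 (adjusted p = 0.872) and Ccl24 at -0.76 (adjusted p = 0.131). These uncalled ligands were named after their values were seen.

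Genes that act downstream of chemokine receptors were counted next. Of 16 signalling genes, 2 were called higher and 1 lower, and their median log2 fold change was 0.01. Pik3r5 encodes the p101 regulatory subunit of PI3Kγ and fell from 550.0 ± 30.5 to 347 ± 25.9 CPM (SD, n = 3 each; log2 fold change -0.66, SE 0.08, adjusted p = 0.000243). Pik3cg, the catalytic subunit that pairs with it, rose by 0.31 (SE 0.08, adjusted p = 0.0213), and the phospholipase gene Plcb2 rose by 0.26 (SE 0.07, adjusted p = 0.0435). The Plcb2 call was lost in each of the 6 fits without 1 library (log2 fold change 0.19 to 0.29). That of Pik3cg was lost without the second or the third ITGA5 fl/fl library or the second Myα5KO library (adjusted p = 0.0831, 0.0990 and 0.0780).

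Of 14 genes of receptor desensitisation, 2 were called higher and none lower by edgeR, with a median log2 fold change of 0.12. DESeq2 and limma-voom gave the same counts, and at an unadjusted p under 0.05 edgeR had 5 higher and 0 lower. Both called genes belong to the RGS proteins, which speed up GTP hydrolysis by Gα subunits. Rgs2 rose from 193 ± 20.2 to 272 ± 43.9 CPM (SD, n = 3 each; log2 fold change 0.49, SE 0.11, adjusted p = 0.0115), and its call was lost without the third ITGA5 fl/fl library (0.41, adjusted p = 0.0657). Rgs14 rose from 14.5 ± 0.827 to 21.9 ± 1.99 CPM (SD, n = 3 each; log2 fold change 0.59, SE 0.10, adjusted p = 0.00336).

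Genes whose pattern over the 6 libraries was most like that of each receptor were sought among 8115 genes with a mean of at least 10 CPM. The measure was Pearson's r of log2 CPM over 6 libraries in 2 groups, so genes that differ between the groups in the same direction score high, and the values are descriptions. For Ccr2 the nearest genes were Fam84b (r = 0.994), Mndal (0.990) and Parp9 (0.988), and for Cx3cr1 they were Bicd2 (0.995), Kdelc2 (0.994) and Rps6ka1 (0.993). For Ccr1 they were P4hb (0.998), Adora2b (0.995) and Sema4b (0.994), and for Ccrl2 Pex5 (0.996), Procr (0.995) and Rrp1 (0.995). The uncalled Cxcr4 was nearest to Serpinb8 (0.997), St3gal6 (0.996) and Dusp6 (0.993), and Cxcr3 to Susd6 (0.992), Sos2 (0.988) and Tmx4 (0.987). Ccr7 was nearest to Ccdc82 (0.986), Slf2 (0.983) and Gle1 (0.970), and Ccr3 to Men1 (0.988), Mrps16 (0.984) and Vcpip1 (0.982). No gene was among the 3 nearest of more than 1 receptor.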

How the data were processed

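RNA-seq of 6 libraries was analysed. The authors deposited whole-number read counts per gene and FPKM. Per the submitters' processing notes, TopHat2 2.0.9, HTSeq 0.6.1 and Cufflinks 2.1.1 were used, on build GRCm38. Multi-mapping and strand settings are not given in the sources used here. Each FPKM value equalled the count divided by gene length and a library constant.

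Counts were tested here with edgeR 4.0.16 (R 4.3.3; TMM, glmQLFit, glmQLFTest, filterByExpr with minimum count 10 and total 15), without covariates, and Benjamini-Hochberg adjustment over 14522 genes, at 0.05. DESeq2 1.42.0, limma 3.58.1 (voom, and log2(FPKM + 1) or log2(FPKM + 0.1) for genes with FPKM of at least 1 in 3 libraries), other scaling, other filters, a replicate block and leaving out each library were alternatives. Levels by longest GENCODE M21 transcript and a marker sum without Nr4a1 were added after seeing the data. The edgeR script was tested on simulated data. Marker sums and ratios were compared by exact permutation. Groups came from the sample titles. Members and lists were chosen with earlier results of these data known. Named genes were Itga5, Lyz2, the receptors, tested other chemokine receptors, called genes of the other lists (at most 5 per list and direction), tested genes of the receptor cluster and, per receptor, the 3 genes of highest Pearson r. A few genes that the rule would name are not reported here. Any further gene was picked with its values in view. Plasmacytoid dendritic, B, mast, fibroblast, endothelial and conventional dendritic cell marker lists are given in the closing section. Totals of 15424451 to 18419287 counts limit precision, and counting intervals cover counting error only. The labels give individual hearts as the source of the libraries.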

Additional observations from a re-analysis of the deposited data

How the results depend on the processing

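Ccr2, Cx3cr1 and Ccrl2 kept their calls in all 15 alternative fits, and Ccr1 in all but the FPKM fits, where 1 receptor was called lower with either pseudocount. The cause was not tested. Cxcr4 was called higher with library totals only, without a count filter and without the first Myα5KO library (adjusted p = 0.0382, 0.0226 and 0.0237).

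With limma on log2(FPKM + 1) and log2(FPKM + 0.1), 150 and 142 genes were called higher and 322 and 306 lower, in place of 517 and 754. Of the other chemokine receptors 0 and 0 were then lower, of ligands and signalling genes 0 and 0 higher, of desensitisation genes 1 and 1 higher, and with log2(FPKM + 0.1) 1 other chemoattractant receptor was lower. Library totals alone moved the median of all genes from 0.01 to 0.10, with 1212 genes called higher and 518 lower (70.1% of calls higher, in place of 40.7%), 2 other chemoattractant receptors and 5 desensitisation genes higher, and turned the uncalled Ccr3 (0.0159), Ccr7 (0.0372) and Ccr6 (0.0510). The fit without a count filter called 798 genes higher and 940 lower, with 1 other chemokine receptor and 6 ligands higher and 2 ligands lower. Signalling genes called higher numbered 1 with DESeq2, with median-ratio scaling and with 10 counts in every library.

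Leaving out 1 library gave 187 to 420 genes higher and 429 to 671 lower, 2 to 3 of the 8 receptors higher, and 2 lower each time. It gave 0 to 1 other chemokine receptors and 1 to 3 other chemoattractant receptors lower, 1 to 4 ligands higher and 0 to 2 lower, and 0 to 1 signalling and 1 to 2 desensitisation genes higher. Uncalled genes that turned sign were Ccr3 (-0.25 to 0.0822), Ccr7 (-0.15 to 0.0597), Ccr6 (-0.28 to 0.13), Ccr9 (-0.37 to 0.14) and Ackr1 (-0.11 to 0.25). Of 716 values for named genes, 120 lost and 5 gained a call.

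Same-numbered libraries did not deviate together (r = 0.07, -0.16 and 0.02), so the numbers were not taken to pair the samples. The third Myα5KO library stood furthest from its own group. The chi-square per degree of freedom of its counts was 14.8 against the first Myα5KO library and 9.93 against the second. The other pairs within a group had 5.61 to 7.72. With the replicate block 464 genes were higher and 717 lower, with 2 of the 8 receptors in each direction. Of the 8 receptors, Ccr3 had the fewest counts and the widest interval.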

Other observations

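Marker lists of further cell types that the Ly6G- CD11b+ fraction could hold were measured in the same libraries. Of 6 B cell markers, 2 were called higher in Myα5KO libraries by edgeR, among them Cd79b (log2 fold change 0.57, SE 0.14, adjusted p = 0.0258). All 6 had positive log2 fold changes and were higher at an unadjusted p under 0.05 by edgeR. DESeq2 called 2 higher and limma-voom 1. The summed level of the list was 70.0 to 111 CPM in ITGA5 fl/fl and 110.0 to 178 CPM in Myα5KO libraries. The B cell homing receptor Cxcr5 had a log2 fold change of 0.49 and was not called. Of 8 conventional dendritic cell markers, Cd209a rose (0.57, adjusted p = 0.0259) and Cd24a fell (-0.56, adjusted p = 0.0209), and the sums of 98.3 to 108 and 92.6 to 106 CPM overlapped.

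Of 6 fibroblast markers, 1 was called lower by edgeR, Postn (log2 fold change -0.40, adjusted p = 0.0261). All 6 had negative log2 fold changes, and 4 were lower at an unadjusted p under 0.05 by edgeR. DESeq2 called 3 lower and limma-voom 2. The summed level of 1599 to 1875 CPM in ITGA5 fl/fl and 1191 to 1560.4 CPM in Myα5KO libraries did not overlap (exact permutation p = 0.1, adjusted 0.233). Of 6 endothelial markers, 1 rose, Kdr (0.26, adjusted p = 0.0433), with sums of 283 to 324 and 311 to 345 CPM. The calls of Cd79b, Cd209a, Cd24a, Postn and Kdr were each lost in at least 3 of the 6 fits without 1 library. None of 5 tested plasmacytoid dendritic cell markers (sums of 323 to 341 and 323 to 353 CPM) and none of 2 tested mast cell and basophil markers (sums of 16.2 to 23.3 and 19.1 to 21.6 CPM) was called by edgeR, DESeq2 or limma-voom, with 1 and 0 at an unadjusted p under 0.05 by edgeR. In the ITGA5 fl/fl libraries Tcf4 and Bst2, with means of 195 and 133 CPM, made up most of the plasmacytoid sum, and Siglech had a mean of 1.64 CPM. Kit, with a mean of 15.6 CPM, made up most of the mast cell and basophil sum. The gene Fcer1a, which encodes a chain of the mast cell IgE receptor, had no counts in any library. The part of these cells in the receptor values was not tested.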
